A study of Mus musculus with 6 samples.

Results

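The final stretch of neutrophil differentiation was followed by single-cell RNA sequencing in HOXA9-immortalized granulocyte-macrophage progenitors (iGMPs) that had been without estradiol for 48 h (HOXA9 OFF 48 h) or 96 h (HOXA9 OFF 96 h). Cells were assigned to a time point by the library ending of their barcode and kept when they held between 200 and 6000 genes and no more than 10% mitochondrial unique molecular identifiers (UMIs). 1404 of 1597 barcodes at 48 h and 1510 of 1513 barcodes at 96 h met this rule, so 2914 of the 5872 cells kept in the 6 libraries of the study are described here. Every library came from Lys-GFP-ER-HoxA9 cells of a strain given as C57BI/6, which are mouse bone marrow progenitors carrying a GFP reporter driven by the lysozyme promoter and the transcription factor HOXA9 fused to the ligand-binding domain of a mutant estrogen receptor. With stem cell factor and estradiol in the medium the fusion protein is active and the cells keep dividing, and this culture gave the 0 h library. Washing estradiol out inactivates HOXA9 and the cells differentiate. According to the study, the HOXA9 OFF cells were from a clonal line with a control shRNA vector, and the CAF-1 OFF cells, shown only for reference, were from a clonal line in which IPTG switched on an shRNA against Chaf1b while estradiol stayed in the medium. Each time point is 1 library, so no test between time points was possible and no p-value is given. The intervals in brackets are exact 95% intervals that cover counting error only, not the spread between cultures.

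Neutrophils are built in stages. Promyelocytes make the primary (azurophilic) granules with elastase, proteinase 3, cathepsin G and myeloperoxidase. Myelocytes and metamyelocytes then fill secondary (specific) granules with lactoferrin, cathelicidin and lipocalin, and division ends at the metamyelocyte stage. Band and segmented cells add tertiary (gelatinase) granules and secretory vesicles that carry receptors to the surface. The C/EBP family of transcription factors is known to drive the secondary granule genes. Mature neutrophils hold large amounts of the calcium-binding S100A8 and S100A9 proteins, have few mitochondria, and leave the bone marrow under the control of the chemokine receptor CXCR2.

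Levels are given in CPM, the UMIs of a gene in all kept cells of a library per 1000000 UMIs of that library. A CPM is a share of the RNA counted, so fewer cells with a transcript and less transcript per cell cannot be told apart in it. The 48 h library held 5310431 UMIs and the 96 h library 3524285, with a median of 3536 UMIs and 1250 genes per cell at 48 h and 2044 UMIs and 786 genes at 96 h. Cells at 96 h therefore carried 1.62-fold fewer UMIs on average, and whether this was less RNA per cell or shallower sequencing was not tested. A count of 0 allows up to 0.565 CPM at 48 h and 0.851 CPM at 96 h (3 counts of the total). The kept cells of both libraries shared 7 barcode sequences, and 8 were shared over all barcodes. The filter removed 12.1% of barcodes at 48 h and 0.198% at 96 h. All 11 neutrophil markers (S100a8, S100a9, Ltf, Camp, Ngp, Ly6g, Mmp8, Mmp9, Retnlg, Cxcr2 and Csf3r) were at 158 CPM or more at 96 h. The lowest of them was Csf3r at 96 h and Retnlg, at 4.33 CPM, at 48 h. Each of the 11 was higher at 96 h, the labelled direction. The same genes are reported below, so this is not a separate check of the labels. The lysozyme transcript Lyz2 was nearly absent, with 1 UMI at 48 h and 2 UMIs at 96 h. For its reporter the study cites mice with GFP inserted into the lysozyme gene, and whether this lowered the count was not tested.

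The first comparison asks how many genes still changed once the cells had been differentiating for 48 h. Of 4319 genes whose mean over both libraries reached 20 CPM, 436 (10.1%) were at least 2-fold higher at 96 h and 650 (15%) at least 2-fold lower, on the scale log2(CPM + 10). "Rose" and "fell" below are used for genes past both this size and this minimum level. 49 genes rose and 21 fell by 8-fold or more. The 436 genes that rose took up 5.16% of all UMIs at 48 h and 34.3% at 96 h, and those that fell went from 42.8% to 12.2%. Genes that rose made up 40.1% of the changed genes, and this split depended on the scaling. It was 54.6% with trimmed mean of M-values (TMM) factors, 56.9% with median-of-ratios factors, 19.1% when mitochondrial and ribosomal protein genes were left out of the total and 11.6% for UMIs per cell. The median log2 ratio of all these genes was -0.08, and the same scalings shifted it by 0.167, 0.193, -0.354 and -0.545 on the log2 scale.

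**Figure D1:**
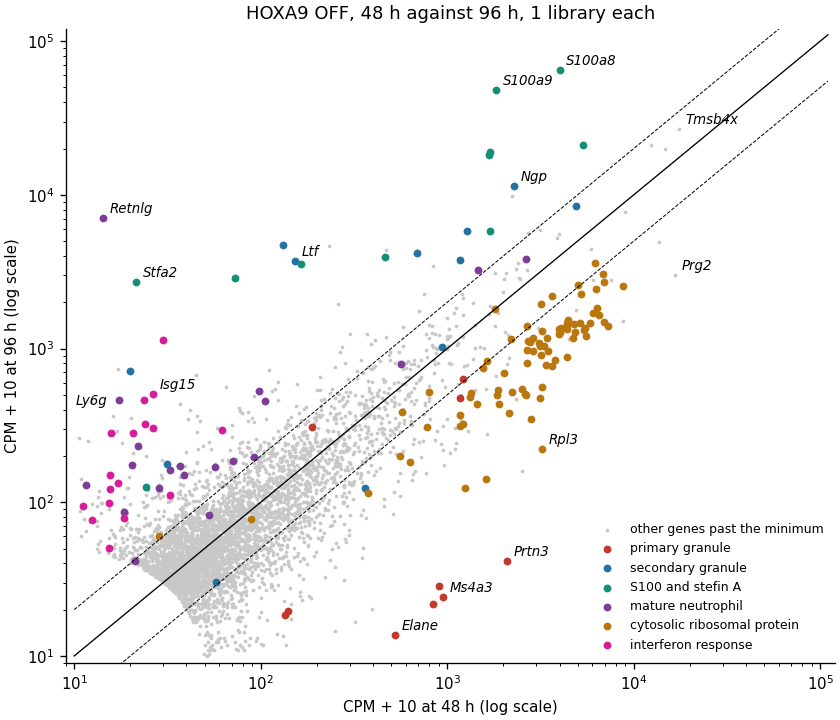
Level of each gene past the minimum at 48 h (x axis) and 96 h (y axis), as CPM + 10 on log scales, 1 library each, with 6 gene lists in colour, the line of equality and dashed lines at 2-fold. S100a8 and S100a9 lie at the top, Retnlg farthest above the line, the granule proteases far below it, and nearly all ribosomal protein genes below it.

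The mRNAs for the primary granule proteases fell to low levels. Prtn3, which encodes proteinase 3, had the largest fall on the log2(CPM + 10) scale of any gene with at least 100 CPM in either library, from 2088 CPM at 48 h (2049.7 to 2128) to 31.2 CPM at 96 h (25.6 to 37.6). This was 66.9-fold lower (55.5 to 81.5). Ms4a3, a membrane protein of granulocyte-committed progenitors, was at 934 CPM at 48 h (908 to 961) and 14.2 CPM at 96 h (10.5 to 18.7). Ctsg (cathepsin G) was at 834 CPM at 48 h and 11.6 CPM at 96 h, Elane (neutrophil elastase) at 512 and 3.69 CPM, and Mpo (myeloperoxidase) at 890.3 and 18.4 CPM. In each case the intervals at the time points were far apart, and the levels at 96 h were 71.6-fold, 139-fold and 48.3-fold lower. Elane had been at 48.2 CPM and Ms4a3 at 64.9 CPM at 0 h, below their levels at 48 h, whereas Ctsg had been at 3309 CPM at 0 h and was already lower at 48 h. Prss57 and Cst7, a further granule serine protease and a cystatin that inhibits cysteine proteases, fell by less (14.7-fold and 13.5-fold lower), as did Serpinb1a, the cytosolic inhibitor of these proteases (2.51-fold lower). Srgn, the proteoglycan that packs granule contents, was at 1203 and 621 CPM, under 2-fold. Ctsc, the peptidase that activates the granule proteases, was at 178 CPM at 48 h and 299.9 CPM at 96 h, the one member above its 48 h level. In all, 8 of the 10 primary granule genes fell and none rose, with a median log2 ratio of -3.93 against -0.08 over all genes past the minimum.

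Secondary granule genes rose over the same interval, and some of them from an already high level. Ltf, which encodes the iron-binding protein lactoferrin, was at 143 CPM at 48 h (133 to 154) and 3719.6 CPM at 96 h (3656 to 3784). This was 26.0-fold higher (24.2 to 28.0). Mmp8, neutrophil collagenase, was at 122 CPM at 48 h (113 to 132) and 4692 CPM at 96 h (4620.5 to 4764), and Chil1, a chitinase-like protein, at 9.79 CPM at 48 h (7.31 to 12.8) and 701 CPM at 96 h (674 to 729). Each was low at 48 h and among the 15 largest rises at 96 h, 38.5-fold and 71.6-fold. Camp (the antimicrobial cathelicidin), Ngp (neutrophilic granule protein) and Lcn2 (lipocalin-2, which binds bacterial siderophores) were well expressed by 48 h, at 675, 2275 and 1269 CPM, and reached 4165, 11396 and 5813 CPM. Their folds of 6.17, 5.01 and 4.58 were thus smaller than those of Ltf, Mmp8 and Chil1. Cd177, a surface glycoprotein stored in these granules, and Pglyrp1, which binds bacterial peptidoglycan, rose 7.83-fold and 3.26-fold. Not every member went up. Fcnb, the lectin ficolin B, fell from 354 CPM at 48 h (338 to 370.4) to 114 CPM at 96 h (103 to 126). Lrg1 was at 47.3 and 20.1 CPM, Hp (haptoglobin) at 924 and 1006 CPM and Chil3 at 4897 and 8446 CPM, all under 2-fold on the log2(CPM + 10) scale. Olfm4 had 2 and 12 UMIs. The list had 8 rises and 1 fall among 12 of 13 members past the minimum, and a median log2 ratio of 2.19.

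The promoters of 4 of the genes that rose are shown because they hold a match to a C/EBP half-palindrome pair, TTGCNNAA on either strand, in the 250 bases before the start site. The stretches are from RefSeq on GRCm38.p6, printed in the direction of the gene, with the match in capitals. They lie at chr9:111019177-111019266 (Ltf, plus strand, match starting 75 bases before the start site), chr9:110419630-110419719 (Ngp, plus strand, 138 bases before, with another match 11 bases before the start site), chr9:7558370-7558428 (Mmp8, plus strand, 19 bases before) and chr16:48872358-48872447 (Retnlg, plus strand, 246 bases before).
Ltf: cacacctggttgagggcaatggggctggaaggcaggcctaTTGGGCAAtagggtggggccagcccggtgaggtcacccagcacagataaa
Ngp: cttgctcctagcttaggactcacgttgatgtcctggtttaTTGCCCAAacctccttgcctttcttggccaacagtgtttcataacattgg
Mmp8: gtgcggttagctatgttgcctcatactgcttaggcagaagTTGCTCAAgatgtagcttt
Retnlg: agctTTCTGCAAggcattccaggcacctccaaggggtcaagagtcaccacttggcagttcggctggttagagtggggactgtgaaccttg
Such a match was found in 5 of the 12 secondary granule genes with a promoter entry, in 0 of 8 primary granule genes and in 10.8% of all 27025 genes with an entry. Among the changed genes it was in 14.7% of those that rose and 7.88% of those that fell. A match is a description of the letters and not a bound site.

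Genes of the tertiary granules and secretory vesicles, which come last in granule formation, rose or stayed within 2-fold. Mmp9 (gelatinase B) was at 35 CPM at 48 h (30.2 to 40.4) and 663 CPM at 96 h (636 to 690.3). Fpr1 and Fpr2, the receptors for bacterial formyl peptides, were at 6.21 and 13.6 CPM at 48 h and 357 and 320.3 CPM at 96 h, 57.4-fold and 23.6-fold higher. Adam8, Slc11a1 (an iron and manganese transporter of phagosomes) and Cd14 (the endotoxin co-receptor) also rose, to 161, 57.0 and 87.7 CPM. The Cd14 rise was under 2-fold for UMIs per cell. It was also under 2-fold without the 96 h cells holding under 5% of UMIs in S100 and stefin A genes, described below. The integrin chains Itgam and Itgb2, which pair as the complement receptor CD11b/CD18, were at 130.5 and 196 CPM at 48 h and 231 and 359 CPM at 96 h. These were 1.77-fold and 1.83-fold higher and under the size counted. Mmp25 and Alpl had no UMI at either time. Of 12 members 9 were past the minimum, 6 rose and none fell, and the median log2 ratio was 1.52. The NADPH oxidase, which makes superoxide in the phagosome, changed less. Its catalytic subunit Cybb (gp91phox) was at 199 CPM at 48 h (187 to 211) and 646 CPM at 96 h (619 to 673) and the cytosolic subunit Ncf1 rose 2.20-fold. Cyba, Ncf4, Rac2 and the proton channel gene Hvcn1 differed by 0.48, 0.50, 0.33 and -0.29 on the log2 scale. Scaled to UMIs per cell, neither of these rises reached 2-fold and the list median went from 0.50 to -0.18.

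S100 and stefin A transcripts rose the most in total UMIs. S100a8 was at 4001 CPM at 48 h (3947 to 4055) and 65259.5 CPM at 96 h (64993 to 65527) and S100a9 at 1816 CPM at 48 h (1779 to 1852) and 48173 CPM at 96 h (47944 to 48403), and together they were 0.582% of all UMIs at 48 h and 11.3% at 96 h. At 0 h they had 1 and 0 UMIs. Stefin A genes encode cytosolic inhibitors of cysteine cathepsins that are expanded in the mouse. Stfa1 was the highest of them at both times (5353 and 21162 CPM), Gm5483 and BC100530 went from 1676 and 1673 to 18899 and 18154 CPM, and Stfa2 had the largest fold of the group, from 11.5 CPM at 48 h (8.79 to 14.8) to 2700.4 CPM at 96 h (2646 to 2755). Stfa3 and Stfa2l1 rose 45.3-fold and 23.1-fold. The stefin A genes are near-identical copies, so how reads were divided among them is uncertain and their sum is firmer than any single member. All 11 genes of the list rose, by log2 ratios between 1.78 and 6.98, and their sum went from 1.69% to 19.1% of UMIs, 11.3-fold (11.2 to 11.4).

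Genes of mature neutrophils were low at 48 h or rose further. Retnlg, a resistin-like secreted protein, showed the largest rise of all, from 23 UMIs at 48 h to 24915 UMIs at 96 h. In CPM this was 4.33 CPM at 48 h (2.75 to 6.50) and 7069.5 CPM at 96 h (6982 to 7158), 1632-fold higher (1088 to 2575). Ly6g, the granulocyte surface antigen recognised by Gr1 antibodies, was at 7.34 CPM at 48 h (5.22 to 10.0) and 456 CPM at 96 h (434 to 479). The chemokine receptor Cxcr2 was at 10.4 CPM at 48 h (7.80 to 13.5) and 164 CPM at 96 h (151 to 178), and the G-CSF receptor Csf3r at 47.1 and 158 CPM. Both receptors rose, 15.8-fold and 3.36-fold. The inflammatory cytokine Il1b went from 8 UMIs to 418 UMIs, or 119 CPM at 96 h. The C-type lectin receptors Clec4d and Clec4e, which sense mycobacterial and damaged-cell lipids, rose 18.4-fold and 5.96-fold, the bacterial lipoprotein receptor Tlr2 6.71-fold and the chemokine Ccl6 5.94-fold. Clec4d and Clec4e had been higher at 0 h (74.5 and 117 CPM) than at 48 h (12.1 and 27.1 CPM). Il1r2, Msrb1, Ifitm1 and Txnip were higher at 96 h by less than the size counted. 16 of the 20 members rose and none fell, with a median log2 ratio of 2.11, and with UMIs per cell as the scale 12 rose.

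**Figure D2:**
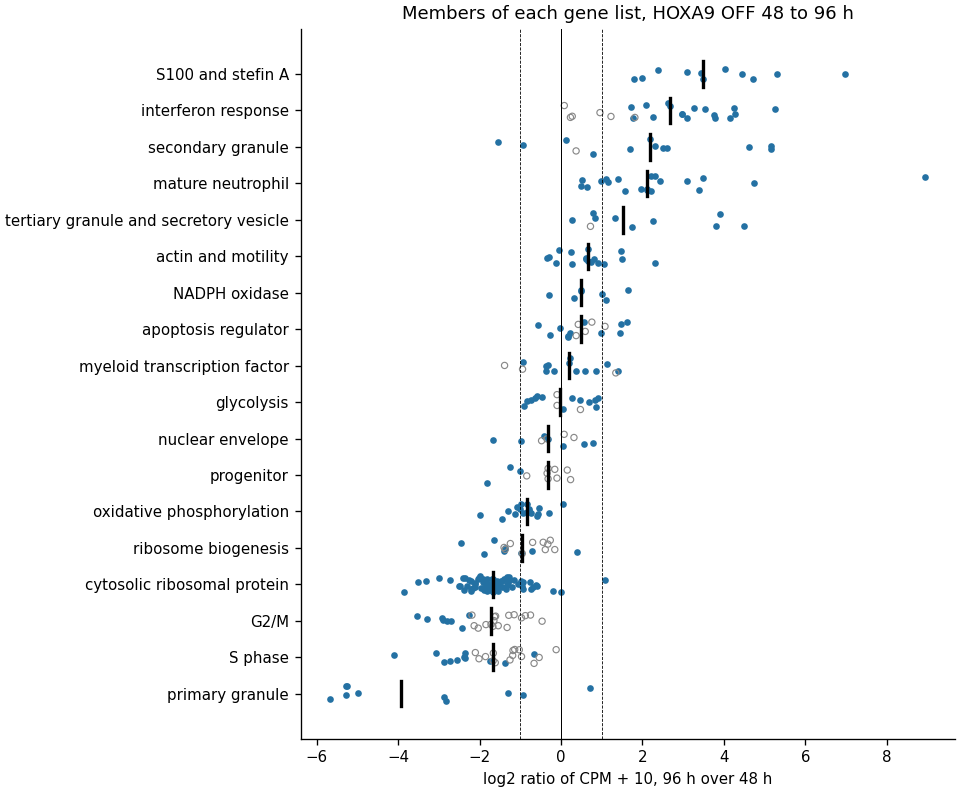
Log2 ratio of CPM + 10 at 96 h over 48 h (x axis) for every member with a UMI in the gene lists (y axis), filled where the gene passed the minimum level and open where it did not, with the list median as a bar and dashed lines at 2-fold. Primary granule genes have the lowest median (-3.93) and S100 and stefin A genes the highest (3.49).

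Of 12 transcription factor genes of granulopoiesis past the minimum, 2 rose and 0 fell. Over all genes past the minimum 10.1% rose and 15% fell. Cebpe, known to be needed for secondary granules, was at 704 CPM at 48 h and 625 CPM at 96 h. Cebpa was at 35 and 41.4 CPM and Spi1, which encodes PU.1, at 814 and 1049 CPM, all under 2-fold. Cebpb, the C/EBP factor of emergency granulopoiesis, was at 200 CPM at 48 h (188 to 212) and 452 CPM at 96 h (430.1 to 475), and Klf6 at 69.7 and 199 CPM, and these were the 2 factors that rose. Neither rise reached 2-fold for UMIs per cell, where the list median was -0.34 instead of 0.19. The Cebpb rise was also under 2-fold without the 96 h cells holding under 5% of UMIs in S100 and stefin A genes, described below. The same held without the cells rich in eosinophil or mast cell genes. Gfi1, the repressor active in promyelocytes, was below the minimum level, with 149 UMIs at 48 h and 16 at 96 h, and Myc had 55 and 2 UMIs. Bcl6, also below it, had 36 and 115 UMIs. Irf8, a factor of the monocyte branch, was at 54.8 and 23.8 CPM. Hoxa9, whose counts cannot separate the fusion transgene from the endogenous gene, was at 71.9 and 53.3 CPM, and as estradiol withdrawal acts on the protein this level does not check the labels. In separate RNA-seq tracks up to 48 h, the study saw no reads over the untranslated ends of Hoxa9 and took the signal as the transgene. Cebpd was not analysed here.

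Genes of cell division fell. The thymidylate synthesis gene Tyms was at 67.0 CPM at 48 h (60.2 to 74.4) and 1.70 CPM at 96 h (0.625 to 3.71), and Rrm2, the ribonucleotide reductase subunit made in S phase, at 76.3 CPM at 48 h (69.0 to 84.1) and 1.70 CPM at 96 h (0.625 to 3.71). Both were close to the floor at 96 h. 2810417H13Rik, which encodes a PCNA-binding factor, had the largest fall of the S phase list, from 1271 to 16 UMIs, 52.7-fold lower (32.3 to 92.5). Lig1, DNA ligase 1, went from 222 UMIs to none, at least 49.1-fold lower with 3 counts allowed at 96 h. Of the 26 S phase genes 11 were past the minimum, 10 of which fell. The exception was Slbp, which binds histone mRNA, at 196 and 121 CPM. All 8 of the 25 G2/M genes past the minimum fell, among them Cdk1 (65.3 to 0.851 CPM), Ube2c (127 to 1.70 CPM) and Birc5 (122 to 3.40 CPM). Mki67, the antigen of the Ki-67 proliferation stain, had 183 UMIs at 48 h and 3 at 96 h. Summed, S phase genes were 7.09-fold (6.53 to 7.71) and G2/M genes 22.3-fold (19.2 to 26.0) lower. The medians with the pseudocount, -1.67 and -1.72, understate this because most members are low. Without it, and with genes at 0 UMIs set to 3 counts, they were -4.33 and -5.09. Stmn1, a microtubule regulator of dividing cells that is in neither list, was among the 15 largest falls (311 to 6.53 CPM).

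Most genes for ribosomal proteins fell. 71 of 83 cytosolic ribosomal protein genes past the minimum were at least 2-fold lower, with a median log2 ratio of -1.68, and their summed share went from 27.9% to 8.86% of UMIs. Rpl3 was at 3215 CPM at 48 h (3167 to 3263) and 210.5 CPM at 96 h (196 to 226), 15.3-fold lower, and Rpl22l1 and Rpl12 were 12.2-fold and 10.8-fold lower. Rps27 by contrast was at 1803 and 1799.8 CPM, and Rpl37, Rpl38 and Rps27a differed by -0.69, -0.61 and -0.77 on the log2 scale. The one member that rose was Rpl3l, a paralog of Rpl3, at 18.4 and 49.9 CPM. With either TMM or median-of-ratios factors 68 members fell. Ribosome assembly genes went the same way, with 5 of 8 past the minimum falling, including Npm1 (nucleophosmin, 953 to 164 CPM) and Ncl (nucleolin, 182 to 64.1 CPM). Ubtf, a factor for ribosomal RNA transcription, was at 23.9 and 34.6 CPM.

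Mitochondrial transcripts were also lower. The 13 genes of the mitochondrial genome summed to 4.88% of UMIs at 48 h and 2.29% at 96 h. Of these, 7 of the 11 past the minimum fell, and over all genes past the minimum 15% fell. mt-Nd1, a complex I subunit, was at 3356 and 936 CPM, whereas mt-Co1, a complex IV subunit, was at 8914 and 7727 CPM. Among 18 nuclear genes of oxidative phosphorylation 6 fell, led by Atp5g1 (a subunit of the ATP synthase rotor, 346 to 78.9 CPM) and Atp5a1 (397 to 139 CPM). With UMIs per cell 16 of them fell, and with TMM factors 3. No glycolysis gene changed by 2-fold in CPM, but this count depended on the scaling. With TMM or median-of-ratios factors 3 of 13 rose, for UMIs per cell 5 fell and with mitochondrial and ribosomal protein genes out of the total 4 fell. Within that list, Eno1, Slc16a3 and Hk2 were higher (log2 0.92, 0.86 and 0.84) and Tpi1, Pgam1 and Ldha lower (-0.91, -0.83 and -0.74), and the summed share was 0.519% and 0.530%. Its median of -0.03 changed sign with TMM or median-of-ratios factors, to 0.13 and 0.16.

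Genes of cell shape and survival changed modestly. In the actin list 4 of 17 members rose and none fell, beside 10.1% and 15% over all genes past the minimum. Capg, which caps actin filaments, was at 113 and 598 CPM, Vasp, which extends them, at 275 and 797 CPM, Lcp1 (the leukocyte bundling protein L-plastin) at 398 and 1127 CPM, and Actb at 2687 and 5599 CPM. Scaled to UMIs per cell only Capg was still 2-fold higher, and the list median went from 0.65 to -0.02. Tmsb4x, which binds actin monomers, was the highest member and held 1.75% of UMIs at 48 h and 2.68% at 96 h. Mcl1, the survival factor on which neutrophils depend, was at 52.0 CPM at 48 h (46.0 to 58.5) and 179.6 CPM at 96 h (166 to 194). Fas, the death receptor, was at 20 and 71.5 CPM and Bcl2a1b, one of several near-identical anti-apoptotic copies, at 6.40 and 35.8 CPM. These were the 3 rises among 11 apoptosis regulators past the minimum, and for UMIs per cell none of the 3 reached 2-fold. Without the 96 h cells holding under 5% of UMIs in S100 and stefin A genes, Bcl2a1b was also under 2-fold. For the nuclear envelope, which is remodelled as the nucleus becomes lobed, Lbr (lamin B receptor) was at 93.6 and 97.0 CPM, Lmnb1 at 33.0 and 22.1 CPM, and Lmna had 3 and 4 UMIs. Banf1, a DNA-binding envelope factor, was the single fall there (175 to 48.2 CPM).

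A set of interferon-induced genes rose in addition to the maturation genes. This list was drawn up after its members had been seen among the largest changes, so its counts are a description. Isg15, a ubiquitin-like modifier, was at 16.6 CPM at 48 h (13.3 to 20.4) and 499 CPM at 96 h (476 to 523), and Ifi27l2a at 20 CPM at 48 h (16.3 to 24.1) and 1128 CPM at 96 h (1093 to 1164). The antiviral genes Ifit1, Ifit3, Oasl2 and Rsad2 went from 16.6, 10.7, 5.84 and 5.65 CPM to 296, 273, 273 and 141 CPM, and the transcription factor Irf7 from 13.9 to 314 CPM. All 17 members past the minimum, of 24, rose. The sum of the list was 0.0144% of UMIs at 0 h, 0.0226% at 48 h and 0.442% at 96 h, so nearly all of the increase came in the second interval. Promoters of Isg15 (chr4:156200847-156200936, minus strand) and Ifit1 (chr19:34640740-34640829, plus strand), from RefSeq on GRCm38.p6, are shown for the interferon response element core GAAANNGAA, in capitals where it or its reverse complement matches. Matches overlap in both.
Isg15: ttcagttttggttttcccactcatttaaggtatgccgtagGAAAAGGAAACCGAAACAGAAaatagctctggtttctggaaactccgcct
Ifit1: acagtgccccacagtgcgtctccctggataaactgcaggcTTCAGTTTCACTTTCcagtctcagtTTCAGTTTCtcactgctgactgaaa
The core was in 9 of 17 list members with a promoter entry and in 8.18% of all genes with one.

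Outside the lists, the 15 largest rises included Ceacam10, a secreted immunoglobulin-type protein, at 7.16 CPM at 48 h (5.06 to 9.82) and 727 CPM at 96 h (699 to 755), Asprv1, an aspartic protease, at 2.26 CPM at 48 h (1.17 to 3.95) and 441 CPM at 96 h (419 to 463), Slfn1 at 1.88 CPM at 48 h (0.903 to 3.46) and 242 CPM at 96 h (226 to 259) and the chemokine Ccl5, which had 3 UMIs at 48 h and 893 at 96 h. Rgcc, a cell cycle regulator, was among the 15 largest falls (271 to 21.3 CPM).

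In a cell at 48 h, S100 and stefin A genes made up a median of 0.664% of UMIs (10th to 90th percentile 0.111 to 6.06%), and at 96 h 24.3% (1.15 to 30.7%). At 96 h the distribution had a main body above 15% (1186 cells) and a separate group near 0. With a boundary of 5%, chosen after seeing this gap, 221 of 1510 cells at 96 h (14.6%, 12.9 to 16.5%) were below it and 18 were within 1 point of it. At 48 h the picture was the other way round, with 177 of 1404 cells above 5% and 24 above 15%. Ribosomal protein genes took a median of 27.4% (21.1 to 34.2%) of a cell's UMIs at 48 h and 5.65% (3.48 to 15.8%) at 96 h. Secondary granule genes had medians of 0.755% and 3.57%, with wide ranges at both times.

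**Figure D3:**
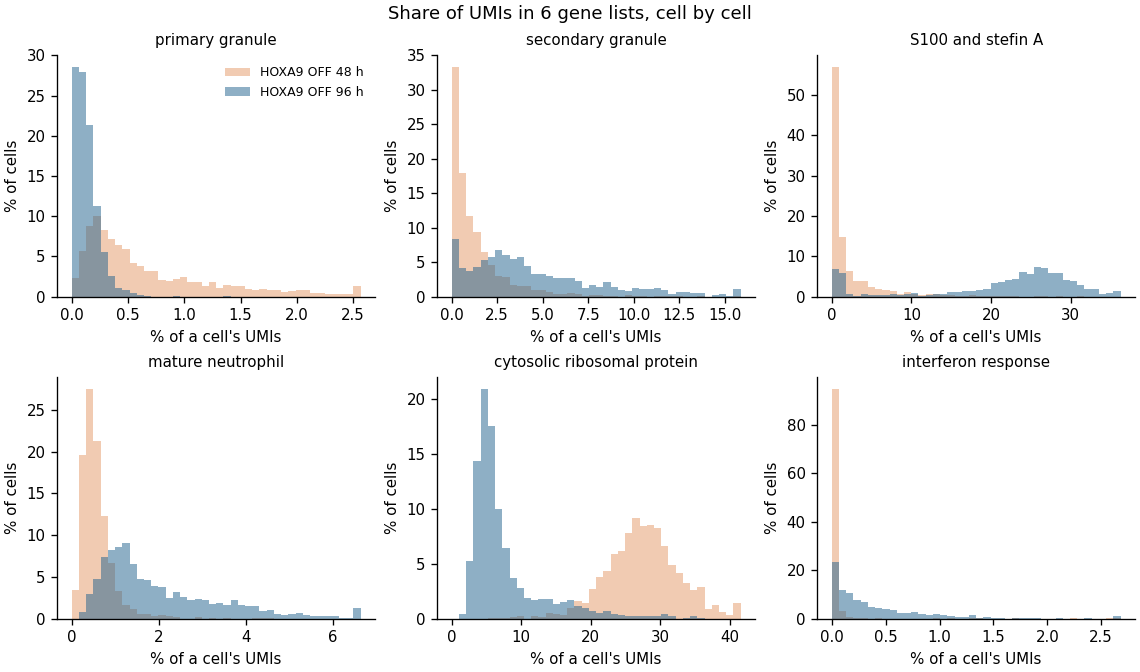
Percent of cells (y axis) by the percent of their UMIs in each of 6 gene lists (x axis) at 48 h (orange) and 96 h (blue), with the top 0.5% of cells placed in the last bin. The S100 and stefin A panel at 96 h has a body above 15% and a separate group near 0, and the ribosomal protein panels barely overlap.

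At 96 h, cells with at least 1% of UMIs in the eosinophil list numbered 54 (244 at 48 h), with 24 within 0.25 points of that boundary, and in them Prg2, the eosinophil granule major basic protein, was at 59926 CPM. In the 167 other cells under 5%, several transcripts known from monocytes and macrophages were higher in summed level. Ctss (cathepsin S) was at 1916 CPM in the 167 cells and 290.3 CPM in the cells above 5%. Mpeg1 was closer, at 627.5 and 464 CPM. S100 and stefin A genes held 24% of UMIs in the cells above 5% and 1.15% in all cells under it. This alone lowers the CPM of other genes above 5%, so a difference as small as that of Mpeg1 shows no clear excess. Csf1r was at 299 and 70.6 CPM, and Adgre1 at 297 and 81.5 CPM (277 CPM in the eosinophil range). The transcription factor Cebpb was at 931 and 350 CPM. Ccr2 was at 376 and 6.15 CPM, Ms4a6c at 1188 and 31.1 CPM and the invariant chain Cd74 at 689 and 18.5 CPM. Ccl5, among the largest rises, was at 1410.1 CPM in the 167 cells, 17.4 CPM in those above 5% and had no UMI in the eosinophil range. Ccr2, Ms4a6c, Cd74 and Ccl5 were among the 15 genes most raised under 5%, so their excess there is a description. The 167 cells were 11.1% of the library. Isg15 was at 891 CPM there, 432 CPM above 5% and 197 CPM in the eosinophil range, all above the 16.6 CPM of the whole 48 h library. Ribosomal protein genes took a median of 16.5% of UMIs in the low cells outside the eosinophil range and 21.1% in the eosinophil range, against 5.26% in the rest. Without the cells under 5%, 450 genes rose and 868 fell.

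Shares of cells with a transcript depend on depth, so UMIs were drawn at random from every cell down to 1300 UMIs, leaving out 28 shallower cells at 48 h and 134 at 96 h. By coincidence 1376 cells remained at each time. Elane was found in 20.4% (18.3 to 22.6%) of cells at 48 h and 0.145% (0.0176 to 0.524%) at 96 h, and 31.6% and 0.331% without thinning. Ltf was found in 7.63% (6.28 to 9.16%) and 53.7% (51.0 to 56.4%), unthinned 11.6% and 61.3%. Retnlg was found in 0.509% (0.205 to 1.04%) and 69.9% (67.4 to 72.3%), unthinned 1.07% and 81%. Mmp8 was found in 90.3% of cells at 96 h, and Cxcr2 reached 20.7%.

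Free RNA in the droplets can give UMIs in cells that do not express a gene. Cells in the eosinophil range should lack neutrophil granule mRNA. At 96 h, after thinning, S100a8 was found in 98% of the 49 such cells and 99.2% of the rest, so its share did not separate these cells. At 48 h it was found in 11.7% of the eosinophil range and 57.4% of the rest. Whether such UMIs were free RNA or expression was not tested. The S100a8 level at 96 h was 1974 CPM in the eosinophil range and 68321 CPM in the rest. At that time Retnlg was in 36.7% of the eosinophil range and 71.1% of the rest. Of the secondary granule genes in the combinations below, Ngp was the least separated, in 46.9% and 71.1%. Ltf was in 22.4% and 54.9%, and Camp in 10.2% and 60.7%. Mmp8 was in 12.2% and 93.2%, and Ly6g in 2.04% and 34.7%. Before thinning these cells had medians of 3025 and 2129 UMIs. At 48 h Elane was in 3.03% of the eosinophil range and 23.9% of the rest. Other genes counted in the combinations below were less far apart or lower. Prtn3 was in 23.8% and 78.0%, Mpo in 22.1% and 34.3%, and Ms4a3 in 11.3% and 46.2%. Ngp was in 21.2% and 31.6%, Camp in 5.2% and 18.9%, and Ltf in 0.433% and 9.08%.

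Combinations of genes were also counted in the same thinned cells, with the same reservation about free RNA. At 48 h 75.7% of cells had a UMI of Elane, Prtn3, Mpo or Ms4a3, and 29.9% had one together with Ltf, Camp or Ngp. At 96 h these shares were 1.02% and 0.727%. A UMI of Retnlg, Cxcr2, Ly6g or Fpr1 was present in 3.78% of cells at 48 h (2.83 to 4.93%) and 84.3% at 96 h (82.3 to 86.2%). Most of the latter, 72.1% of all cells, had a secondary granule UMI as well, and 12.2% had none.

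**Figure D4:**
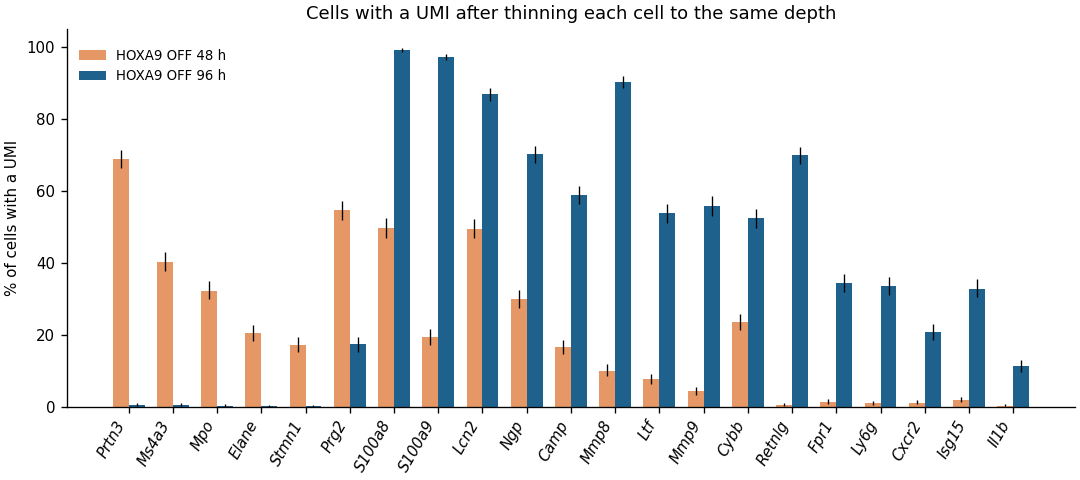
Percent of cells with at least 1 UMI (y axis) of selected genes (x axis) after every cell was thinned to 1300 UMIs, at 48 h (orange) and 96 h (blue), with exact 95% binomial intervals. Primary granule genes and Stmn1 are near 0 at 96 h, and Retnlg, Fpr1, Ly6g and Il1b near 0 at 48 h.

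Markers of other blood lineages are given here, and their part in the changes above was not tested. The 9 eosinophil genes summed to 1.93% of UMIs at 48 h and 0.330% at 96 h, almost entirely from Prg2 (16629 and 3021 CPM) and Prg3 (2522 and 149 CPM), while the peroxidase Epx went from 238 to 6 UMIs and Ear1 had 4 and 5. Of the 10 mast cell and basophil genes 2 were past the minimum. Cpa3 fell from 384 to 10.2 CPM, Hdc, which makes histamine, was at 58.6 and 65.5 CPM, Mcpt8 and Cma1 had 93 and 134 UMIs at 48 h and none at 96 h, and Tpsb2 and Tpsab1 had none at either time. Monocyte and macrophage genes summed to 0.0666% and 0.168%. Dendritic cell genes went from 0.000226% to 0.0141%, nearly all of it Cd74, while H2-Ab1 and H2-Eb1 had no UMI. No erythroid or lymphoid gene, 1 megakaryocyte gene and 1 dendritic cell gene were past the minimum. Megakaryocyte genes summed to 0.00770% and 0.00179%, erythroid genes to 0.00233% and 0.000709% and lymphoid genes to 0.00258% and 0.000142%. Leaving out cells in the eosinophil or mast range (252 at 48 h and 55 at 96 h) gave 418 rises and 733 falls. Progenitor genes, low by 48 h, were lower still. Myb was at 93.6 and 19.6 CPM, Cdk6 at 60.1 and 19.6 CPM, Cd34 at 67.2 and 28.4 CPM, and Kit had 53 and 4 UMIs.

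The second interval can be set beside the first, from 0 h to 48 h, although the 48 h library is shared by both and the changes are then not independent. The filter removed 66.2% of the 1400 barcodes at 0 h and left 473 cells. The secondary granule list had a median log2 ratio of 3.94 from 0 h to 48 h and 2.19 from 48 h to 96 h, and its share of UMIs was 0.0120%, 1.19% and 4.40% at the 3 times. Mature neutrophil genes had medians of 0.94 and then 2.11. The primary granule share was 0.835%, 0.806% and 0.148%, and that of ribosomal protein genes 28.5%, 27.9% and 8.86%. In both sums the drop came after 48 h. Single primary granule genes differed, as Ctsg was already lower at 48 h than at 0 h, while Elane and Ms4a3 were higher. S phase genes fell in both intervals, from 0.369% to 0.125% and 0.0176%, and so did ribosome assembly genes (0.715%, 0.187% and 0.0529%). Over the same 48 h to 96 h in CAF-1 OFF cells, 41 of 4771 genes were at least 2-fold higher and 8 lower. Elane there was at 913 and 1386 CPM, Ltf had no UMI at either time, S100a8 was at 14.3 and 22.4 CPM, and ribosomal protein genes were at 26.3% and 26.5% of UMIs. The difference between the treatments has 1 library per point and was not tested.

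**Figure D5:**
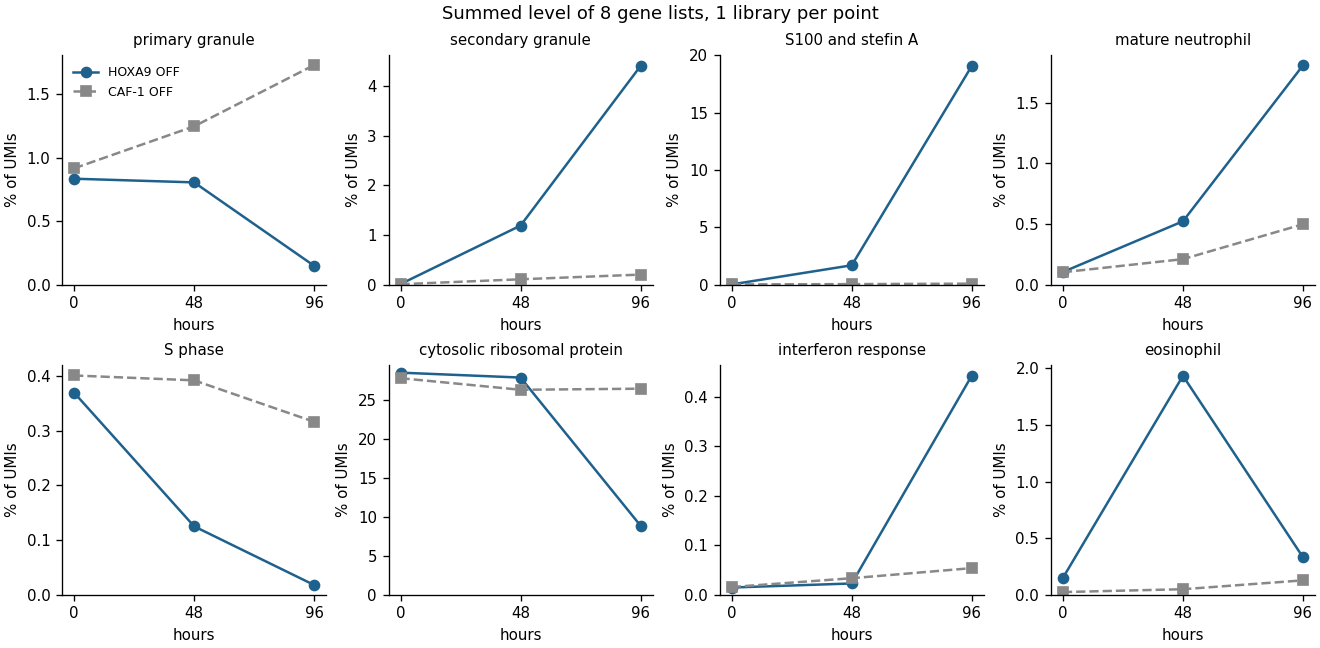
Summed percent of UMIs (y axis, from 0) in 8 gene lists against hours of treatment (x axis) for HOXA9 OFF (blue circles) and CAF-1 OFF (grey squares), 1 library per point. In HOXA9 OFF the ribosomal protein share is 27.9% at 48 h and 8.86% at 96 h, while the eosinophil share peaks at 48 h.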

How the data were processed

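Single-cell RNA-seq libraries (10x Chromium, 3′) were read from a table of raw UMI counts that the authors deposited for all cells, mapped by them to GRCm38 with Cell Ranger. Cells were kept at 200 to 6000 genes and up to 10% mitochondrial UMIs, their counts were summed per library and scaled to CPM, and ratios were taken on log2(CPM + 10) for genes whose mean reached 20 CPM. With 1 library per time point no test was made. Intervals are exact 95% (Clopper-Pearson or Poisson) and cover counting error, without the spread between cultures. Named genes were the members of maturation lists plus the 15 largest rises and 15 largest falls among genes reaching 100 CPM. The members and lists were chosen with earlier results of these data known, and the interferon list, the 5% S100 boundary and the leaving out of cells by range after seeing the data. Scrublet marked 7 cells at 48 h and 5 at 96 h, which were kept. Random thinning used a fixed seed. Scripts were tested on simulated data. Alternatives were TMM (edgeR 4.0.16) and other scalings, pseudocounts, minimum levels, sizes and cell sets. Python 3.11.15, pandas 2.3.3, numpy 2.4.6, scipy 1.17.1 and scanpy 1.11.5 were used. Some list members are not reported here.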

Additional observations from a re-analysis of the deposited data

Results flagged for a closer look

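The summed level of the primary granule list moved in opposite directions under the 2 treatments between 48 h and 96 h. It was -2.44 on the log2 scale in HOXA9 OFF cells (0.806% to 0.148% of UMIs) and 0.47 in CAF-1 OFF cells (1.25% to 1.73%). Each point is 1 library, so the difference was not tested.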

How the results depend on the processing

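The medians of the primary, secondary and tertiary granule, mature neutrophil, S phase and G2/M lists, and the log2 ratios of the 155 named genes that differed by 2-fold or more, kept their direction under the alternatives run. For scalings and pseudocounts this was fixed in advance, because the largest shift by scaling was -0.697 on the log2 scale. Only the changes of cell set could have reversed a gene past 2-fold. Named genes under 2-fold were not followed in this way. More genes rose than fell with TMM (603 and 501) and median-of-ratios factors (639 and 484), the other way round from CPM. The medians of the NADPH oxidase, actin and transcription factor lists changed sign for UMIs per cell, the last also without mitochondrial and ribosomal protein genes in the total. No paired analysis was possible because each time point is 1 library and no result comes from a test. Scaled to UMIs per cell, 177 genes were higher and 1346 lower, and the list medians were 1.49 (secondary granule), 0.94 (tertiary granule) and 1.46 (mature neutrophil). Without mitochondrial and ribosomal protein genes in the total, 1311 genes were lower and the medians were 1.79 (secondary), -2.08 (S phase) and -2.14 (G2/M). The secondary median was 2.39 with TMM and 2.42 with median-of-ratios factors, 2.00 without eosinophil or mast range cells and 2.51 without cells under 5% S100 and stefin A at 96 h. A pseudocount of 50 CPM gave 205 higher and 282 lower genes and medians of -2.49 (primary), 1.66 (secondary), 0.81 (tertiary), 1.26 (mature), -0.60 (S phase) and -0.58 (G2/M), and 1 CPM gave -3.79 (S phase) and -4.01 (G2/M). A size of 1.5-fold gave 886 higher and 1213 lower genes, and 4-fold 128 and 139. Without thinning, Elane was in 31.6% of cells at 48 h, Ltf in 11.6% at 48 h and 61.3% at 96 h, and Retnlg in 1.07% and 81%. Thinned to 2600 UMIs, which only 1114 of 1404 cells at 48 h and 426 of 1510 at 96 h reached, Elane was in 33.1% at 48 h, and at 96 h Ltf was in 59.6% and Retnlg in 74.4%. Depth limits genes near 3 counts, and the single library per time point leaves the spread between cultures unknown.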
